A study of Mus musculus with 12 samples.

Results

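The regions described here are large cliques that list a single gene. In an H3K27ac Hi-ChIP network of mouse hepatocytes, a clique is a set of 5 kb regions, called nodes, that the authors grouped together. A clique was taken when its deposited node number was 10 or more, when its deposited gene column held exactly 1 distinct name, and when it lay on an autosome. The rule found 142 cliques among the 5401 of the young network and 97 among the 5973 of the old network, so 239 of 11374 in all. The cliques were thus chosen by measured values, their node number and their gene column, so both are given below as a description and without a test.

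Hi-ChIP joins DNA ends that lie close together in the nucleus and then recovers the joined fragments with an antibody, here against histone H3 acetylated at lysine 27. That acetylation marks active promoters and enhancers, which are short DNA elements that raise transcription of a gene, often over long distances and often from within the gene's own introns. Many promoters and enhancers in contact with each other can make up a densely linked neighbourhood. A clique with many nodes and 1 gene name is a neighbourhood in which 1 name was assigned among many nodes. How promoters were assigned is not given, and the acetylation of single nodes is not among the values used here.

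The 12 libraries came from hepatocytes of male C57BL/6 mice of 5 months (young) and 25 months (old), with 6 libraries per age from 2 biological replicates in 3 batches of technical repeats. Mice were bought at 3 and 23 months and kept for 2 months before use, without any other treatment named in the labels. The young mice came from a commercial colony and the old mice from an ageing stock kept by the same supplier, so age and stock cannot be told apart. Hepatocytes were pelleted at low speed from collagenase-digested liver after perfusion, so the pellet may hold some other liver cells.

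The authors deposited 1 network per age, and since its tables name no replicate or batch, all 6 libraries of an age were taken to stand behind its network. There is therefore no replicate check and no p-value in what follows. Intervals are Wilson 95% intervals, which cover counting error only and treat neighbouring nodes as independent although they are not. The number of contacts behind each network is unknown. The young network held 56365 autosomal nodes and the old network 39968, and the mean clique held 10.7 and 6.81 nodes, so fewer nodes at old age was the state of the whole network, and its part in each difference between ages below was not tested. Of 12 hepatocyte marker genes, 11 were listed in some young clique and 10 in some old clique, against 0 and 0 of 10 Kupffer cell or macrophage markers, 2 and 1 of 10 endothelial markers, 1 and 0 of 10 stellate cell markers, 2 and 1 of 8 cholangiocyte markers, and 1 and 1 of 10 lymphocyte or neutrophil markers. No marker of another cell type was the lone gene of a clique described here.

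Single-gene cliques made up 9.11% of the 1558 young cliques with 10 or more nodes (interval 7.78 to 10.6) and 8.61% of the 1127 old ones (interval 7.11 to 10.4). The intervals overlap. They held 2476 young nodes, or 12.4 Mb, and 1607 old nodes, or 8.04 Mb, and lay on all 19 autosomes at both ages. Node numbers ran from 10 to 45 with a median of 15 in the young set and from 10 to 42 with a median of 14 in the old set. At the threshold, 21 young and 9 old cliques had exactly 10 nodes, and 24 young and 24 old single-gene cliques just outside it had 9. Median spans were 135 kb at 10 nodes and 130 kb at 9 in the young network, and 160 kb and 145 kb in the old network. The median share of nodes also found at the other age was 40.0% at 10 nodes and 33.3% at 9 in young, and 90.0% and 88.9% in old.

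The promoters of 4 genes and 3 mature microRNAs are printed as examples of the lone names. These genes are Met (the receptor of hepatocyte growth factor), Slc2a2 (the glucose transporter GLUT2 of hepatocytes), Ghr (the growth hormone receptor) and Igf1 (insulin-like growth factor 1, which the liver secretes in response to growth hormone). They were picked by hand, and Igf1 was a lone name in the old network only. The 5 kb bin that holds each start was a node of the gene's own clique at both ages for Met, Slc2a2 and Igf1. For Ghr this held in the young network only. Most young lone genes with a known start also had it in a node of their clique. Each sequence is the 250 bases before the annotated start in RefSeq, build GRCm38.p6, printed in the direction of transcription. Capitals mark matches on either strand to the usual letters of a TATA box (TATAAA), of a GC box (GGGCGG) and of a forkhead site (TGTTTNC). They also mark TGANTCA, which reads the same on both strands and is wider than the usual AP-1 site, with C or G at N. A match to TGANTCA is called an AP-1 match below. No matches overlapped in these windows.
Met, chr6:17463707-17463956, plus strand: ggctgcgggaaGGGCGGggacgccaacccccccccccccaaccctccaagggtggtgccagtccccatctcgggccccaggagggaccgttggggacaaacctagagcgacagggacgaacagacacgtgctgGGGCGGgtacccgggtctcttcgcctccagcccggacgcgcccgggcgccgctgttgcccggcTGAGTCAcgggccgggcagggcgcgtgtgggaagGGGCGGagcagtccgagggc
Slc2a2, chr3:28697653-28697902, plus strand: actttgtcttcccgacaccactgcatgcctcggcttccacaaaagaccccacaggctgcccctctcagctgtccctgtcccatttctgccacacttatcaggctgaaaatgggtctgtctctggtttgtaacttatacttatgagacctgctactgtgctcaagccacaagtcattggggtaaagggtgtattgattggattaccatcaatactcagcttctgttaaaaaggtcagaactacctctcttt
Ghr, chr15:3583353-3583602, minus strand: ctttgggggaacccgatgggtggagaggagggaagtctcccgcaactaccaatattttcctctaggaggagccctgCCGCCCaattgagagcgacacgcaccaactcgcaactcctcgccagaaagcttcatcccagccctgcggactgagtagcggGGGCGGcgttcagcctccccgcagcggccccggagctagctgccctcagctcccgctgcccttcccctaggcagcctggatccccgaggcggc
Igf1, chr10:87860861-87861110, plus strand: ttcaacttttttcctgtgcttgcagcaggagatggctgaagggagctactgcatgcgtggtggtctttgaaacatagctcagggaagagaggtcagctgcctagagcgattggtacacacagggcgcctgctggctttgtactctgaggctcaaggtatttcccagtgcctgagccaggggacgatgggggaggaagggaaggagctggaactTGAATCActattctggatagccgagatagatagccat
The Met window held 3 GC boxes and 1 AP-1 match, at 74.0% G and C. The Ghr window held 2 GC boxes at 65.6%. RefSeq gives Ghr another start, whose window (chr15:3581843-3582092, not printed) also lay in a young Ghr node, at 52.0% G and C. That window held no GC box. It held 1 forkhead match, 1 AP-1 match (as TGAATCA) and 1 match to TATAAA on the opposite strand (as TTTATA). The Ghr window printed is that of the most upstream start. The Igf1 window held 1 AP-1 match, as TGAATCA, at 52.8%, and the Slc2a2 window held none of these letters at 47.2%. The only Igf1 start with a promoter sequence lay inside the annotated gene body. Over the 32851 RefSeq promoters, windows of the same length held the GC box letters on either strand in 32.7% and the TATA box letters on either strand in 12.4%. An AP-1 match, with any base at N, was held by 6.75% and a forkhead match by 17.8%. A match is a description of these letters, and binding was not measured.

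The microRNAs are shown because 3 lone names were microRNA genes. Mir706 was the only name of a young clique of 12 nodes at chr6:119975001-120195000, Mir7237 of a young clique of 18 nodes at chr8:121975001-122140000, and Mir7212 of an old clique of 11 nodes at chr15:25905001-25975000. The mature sequences of the former pair are printed from RefSeq, with the seed, bases 2 to 8, in capitals.
mmu-miR-706: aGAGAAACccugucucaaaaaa
mmu-miR-7237-5p: aUGGUAGCuugugacaggacuggc
mmu-miR-7237-3p: cAUCCUGUugagcuuaccgagc
No 2 of these seeds were alike. The Mir706 clique lay over the protein-coding genes Wnk1 and Ninj2, the Mir7237 clique over Banp and Zfp469, and the Mir7212 clique over Retreg1, none of which the clique listed. Of the Mir706 nodes 3 of 12 were also nodes of the old network, of the Mir7237 nodes 13 of 18, and neither microRNA was listed in an old clique. Mir7212 was listed in young with Zfp622 in a clique of 12 nodes, and 8 of its 11 old nodes were young nodes.

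Names of protein-coding genes made up most of the set. In the young network 109 of the 142 lone names (76.8%) were protein-coding genes of RefSeq and in the old network 81 of 97 (83.5%), against 58.9% and 60.7% of all names in cliques of 10 or more nodes. Of the old 81, Gm10197 was matched through a synonym to Mxi1, which the networks also list under its own symbol, so its match is doubtful. Without it there were 80, with a median length of 90.6 kb. The young set also held 12 long noncoding RNAs, 5 pseudogenes, 2 microRNAs and 14 names that matched no RefSeq symbol, and the old set 6 long noncoding RNAs, 1 small nucleolar RNA, 1 microRNA and 8 unmatched names. Of the 33 young cliques without a protein-coding name, 31 lay over at least 1 protein-coding gene body, as did all 16 old ones. Gm10926, 31 nodes, lay over Asap1, and Gm38059, 28 nodes in old, lay over Nav2. A lone name is thus not always the only gene. Exactly 1 protein-coding gene body lay under the span in 77 young cliques (54.2%) and 54 old ones (55.7%), and at least 2 lay under 63 and 43.

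The genes themselves were long and had distant neighbours. The median length of the lone protein-coding genes was 114 kb in young (quartiles 74.1 to 197 kb, 109 genes) and 90.2 kb in old (quartiles 48.8 to 178 kb, 81 genes). Genes of cliques listing 2 to 4 names had medians of 37.8 and 34.8 kb, and genes of cliques listing 5 or more had 15.7 and 14.0 kb. Of the lone genes, 66.1% in young and 45.7% in old were over 100 kb, against 20.7% and 17.6% with 2 to 4 names and 5.15% and 3.96% with 5 or more. The nearest protein-coding gene that did not overlap the lone gene lay a median of 34.1 kb away in young and 28.1 kb in old. The like medians were 10.7 and 8.65 kb with 2 to 4 names and 3.16 and 2.73 kb with 5 or more. Another protein-coding gene overlapped 13.8% of lone genes in young and 13.6% in old. With 2 to 4 names these shares were 16.4% and 16.6%, and with 5 or more 23.6% and 24.1%. Few names per clique and few genes per Mb go together by construction, so these values are given without a test.

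Nodes lay mainly inside the lone gene, and in the other classes they also lay mainly inside listed genes. Pooled over young cliques with a name matched to RefSeq, 57.9% of nodes lay in the lone gene. The shares in a listed gene were 57.6% with 2 to 4 names and 68.8% with 5 or more. In old the shares were 60.3%, 57.4% and 69.2%. In the 109 young cliques with a protein-coding name the median share of nodes inside the gene was 68.2%, and in the 81 old cliques 63.6%. All nodes lay inside the gene in 17 young and 9 old cliques. Gabbr2 (a subunit of the GABA-B receptor) had all 34 young nodes within its 329 kb, and Palld (the actin-binding protein palladin) all 25. Thrb (the thyroid hormone receptor beta, the main form in liver) had all 27 old nodes inside the gene, and so did Cdh2 (N-cadherin, an adhesion molecule), also 27. At the other end, Slc2a2 had 7 of 21 young nodes inside its 30.5 kb, with the others up to 133 kb away. Aldh1a7 (an aldehyde dehydrogenase) had 3 of 25 inside and 21 more than 50 kb away, the farthest 248 kb. Dusp4 (a phosphatase of MAP kinases) had 3 of 16 inside and its farthest node 633 kb away. The median distance of the farthest node from the gene was 82.7 kb for young cliques and 76.1 kb for old ones.

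The largest young single-gene clique was that of Arid5b (a DNA-binding protein of the ARID family), with 45 nodes over 490 kb at chr10:68050001-68540000. Among the next largest, Ext1 (an enzyme of heparan sulfate synthesis) and Aff1 (a scaffold of the super elongation complex) had 35 each, and Gabbr2 had 34. Plpp3 (a lipid phosphate phosphatase) and Daam1 (a formin that builds actin filaments) had 32 each. Gm10926, Slc38a4 (an amino acid transporter of hepatocytes) and Myo1e (a class I myosin) had 31 each. In the old network the largest was Mob3b (a member of the MOB family of kinase regulators), with 42 nodes over 295 kb at chr4:34930001-35225000. Mrtfb (a coactivator of serum response factor) had 32, Mical2 (an enzyme that oxidises actin) and Gabbr2 had 30 each, and Gm38059 had 28. Tns3 (a tensin of focal adhesions), Thrb, Cdh2, Gfod1 and Ddc (aromatic amino acid decarboxylase) had 27 each. Only Gabbr2 stood among the 10 largest at both ages.

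Whether a node was still a node at the other age differed by network. Of the 2476 nodes of young single-gene cliques, 1266 (51.1%, interval 49.2 to 53.1) were also nodes of the old network. Of the 1607 nodes of old single-gene cliques, 1404 (87.4%, interval 85.7 to 88.9) were also nodes of the young network. The young share was below that of young cliques listing 2 to 4 genes (55.4%, interval 54.5 to 56.4) and 5 or more (65.0%, interval 64.5 to 65.5), and above that of cliques listing none (47.2%, interval 42.7 to 51.7, overlapping). At equal size the order was the same: among cliques of 10 to 19 nodes the shares were 47.7%, 52.0% and 58.7% for 1, 2 to 4 and 5 or more genes, and among those of 20 to 49 nodes they were 55.0%, 57.3% and 64.2%. In the 20 to 49 range the interval for 1 gene (52.1 to 57.8) overlapped that for 2 to 4 genes (56.0 to 58.6). The old shares were 86.8% (interval 86.0 to 87.5) with 2 to 4 genes and 88.6% (interval 88.1 to 89.1) with 5 or more, and both intervals overlapped that of the single-gene cliques.

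**Figure D1:**
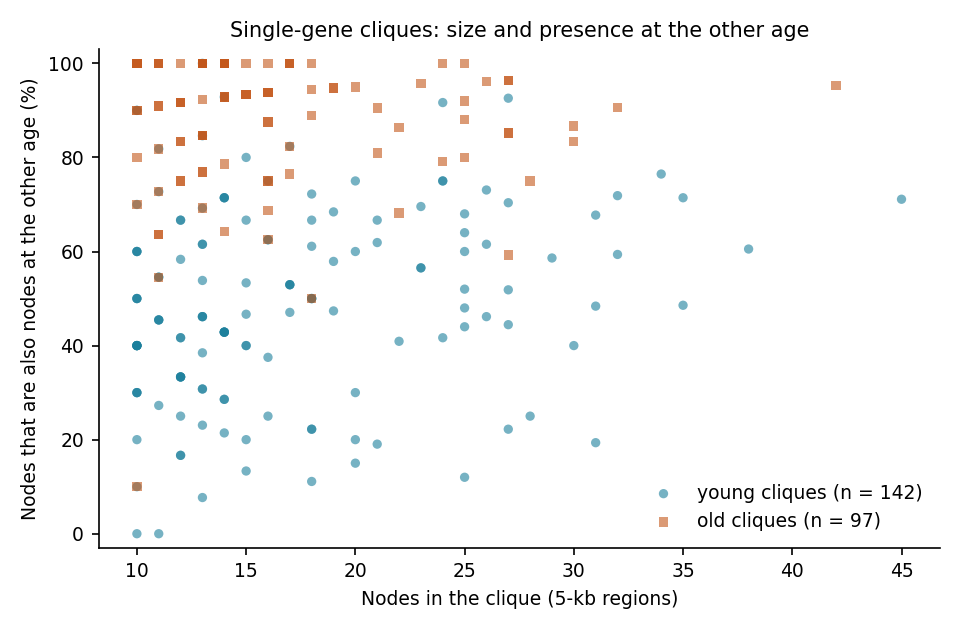
Each point is 1 single-gene clique, with its number of 5 kb nodes on the horizontal axis and the percentage of those nodes that are also nodes of the other age's network on the vertical axis (circles, 142 young cliques; squares, 97 old cliques). Young cliques spread from 0 to 100%, whereas 96 of the 97 old cliques sit at 50% or more.

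By clique, at least 50% of nodes were found in old for 71 of 142 young single-gene cliques (50.0%), against 72.7% of all young cliques with 10 or more nodes. The reverse held for 96 of 97 old cliques, against 98.8% of all old ones. Agreement of a clique with its best counterpart was measured by the Jaccard index, the shared nodes over the nodes in either. An index of 0.5 or more was reached by 40 young cliques (28.2%, background 39.9%) and 44 old cliques (45.4%, background 51.0%). At 10 to 19 nodes the young share was 19.4% (interval 12.8 to 28.3), against 29.7% (interval 26.3 to 33.4) of all young cliques of that size. These intervals overlap. At 20 to 49 nodes the shares were 47.7% and 47.0%. Nodes in 2 or more cliques of the other age were found for 72 young cliques (50.7%, background 59.1%) and for 10 of 97 old cliques (10.3%, background 24.3%). At 10 to 19 nodes this held for 48 of 98 young single-gene cliques and 48.5% of all young cliques of that size, and at 20 to 49 nodes for 54.5% and 61.6%. Old cliques listing more genes had higher shares, 18.1% with 2 to 4 genes and 31.3% with 5 or more. Among old cliques of 10 to 19 nodes the shares were 8.11% (interval 3.77 to 16.6), 19.3% (interval 15.2 to 24.2) and 21.8% (interval 16.6 to 28.1). At 20 to 49 nodes they were 17.4% (interval 6.98 to 37.1), 15.5% (interval 10.3 to 22.7) and 33.9% (interval 29.0 to 39.2), so the single-gene cliques were not the lowest there.

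Single cliques gave the range. The Dclk3 clique (a doublecortin-like kinase) held the same 13 nodes at both ages, at chr9:111420001-111485000. The clique of the long noncoding RNA Gm16351, which lay over Sorbs2, kept 9 of 10 nodes with an index of 0.90, and that of Bcr (a regulator of small GTPases) kept 22 of 24 with 0.85. Cgnl1 (a junction protein, paracingulin) had an index of 0.79 between 27 young and 25 old nodes. At the low end, none of the 11 nodes of Cacng3 or the 10 nodes of Gm26854 was a node in old, and 1 of 13 was for Gm13872. Of the Ghr nodes 2 of 18 were found in old, and of the Aldh1a7 nodes 3 of 25.

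Nodes inside the lone gene were found in old more often than distant ones. In young cliques 57.0% of in-gene nodes (737 of 1294, interval 54.2 to 59.6), 53.2% of nodes up to 50 kb away (236 of 444) and 36.3% of nodes farther off (181 of 498, interval 32.2 to 40.7) were nodes in old. The same order was seen in the other classes: with 2 to 4 names the shares were 60.1%, 52.8% and 43.5%, and with 5 or more they were 68.8%, 58.3% and 48.7%. Over the 84 young cliques with nodes of both kinds, the in-gene share was the higher in 54, the share over 50 kb away in 24, and they were equal in 6. With 2 to 4 names the in-gene share was the higher in 197 of 287 such young cliques and the lower in 73. With 5 or more it was the higher in 241 of 325 and the lower in 82. In the old single-gene cliques the shares were 91.3%, 86.6% and 78.7%. Over the 56 of them with both kinds the in-gene share was the higher in 24, the lower in 13 and equal in 19. In old cliques with 2 to 4 names it was the higher in 105 of 203 and the lower in 55. With 5 or more it was the higher in 88 of 207 and the lower in 81.

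**Figure D2:**
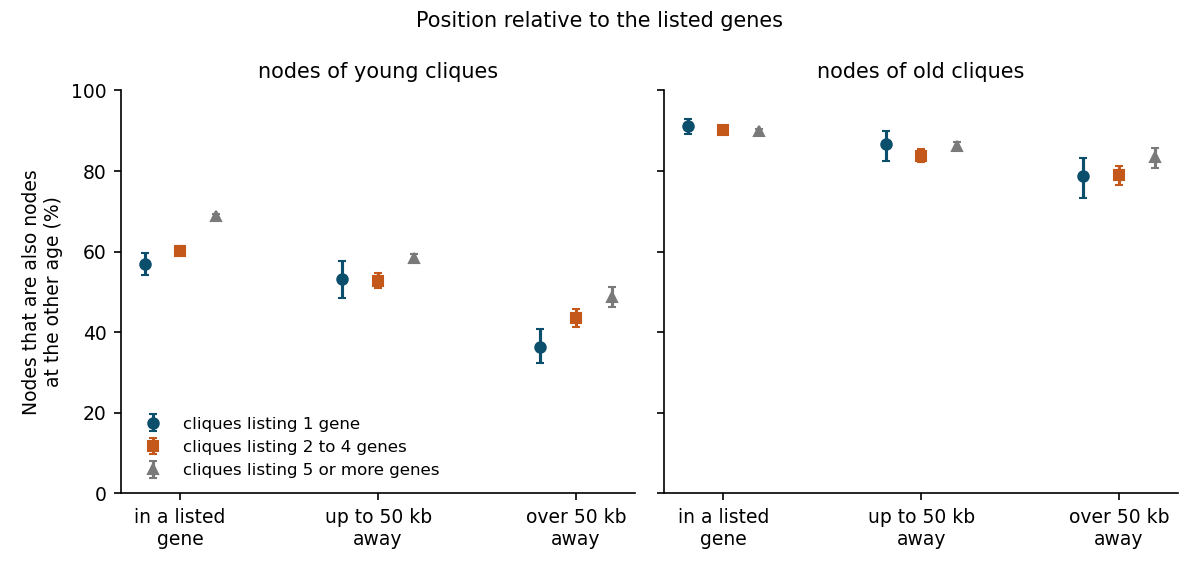
Percentage of nodes that are also nodes at the other age, by distance from the listed genes, for cliques of 10 or more nodes that list 1 gene, 2 to 4 genes or 5 or more genes (left, nodes of young cliques; right, nodes of old cliques; bars, Wilson 95% intervals). For single-gene cliques the share runs from 57.0% in the gene to 36.3% beyond 50 kb in young, and from 91.3% to 78.7% in old.

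Nodes of the single-gene cliques were also counted by the clique that held them at the other age. This split was not made for other cliques, so its shares have no background. Only the share found at the other age can be compared. Among all cliques that met the node minimum, 61.8% of young nodes were found in old and 88.0% of old nodes in young. For single-gene cliques these shares were 51.1% and 87.4%. Of the 2476 young nodes, 829 (33.5%) lay in an old clique that listed the same gene, 390 (15.8%) in an old clique that listed no gene, 47 in a clique that listed other genes only, and 1210 (48.9%) in no clique. Of the 1607 old nodes, 1308 (81.4%) lay in a young clique that listed the same gene, 35 in a clique with no gene, 61 in a clique with other genes only and 203 in none.

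The lone genes were then followed by their largest clique at the other age. Of the 142 young genes, 26 (18.3%) were again alone in an old clique of 10 or more nodes and 57 (40.1%) were alone in a smaller one. Of all names in young cliques of 10 or more nodes, 0.80% and 4.73% had these states in old. Another 13 of the 142 (9.15%, background 56.5%) were listed with other genes in an old clique of 10 or more nodes. A further 8 (5.63%, background 12.3%) were with others in a smaller one, and 38 (26.8%) were in no old clique. The last share was near the background, 25.7% of all names in young cliques of 10 or more nodes, but it mixed kinds of names. Of the protein-coding lone names 18 of 109 (16.5%, interval 10.7 to 24.6) were in no old clique. For protein-coding names the share was 24.8% (interval 22.1 to 27.7) with 2 to 4 genes and 20.6% (interval 19.5 to 21.7) with 5 or more, both overlapping. Of the 33 other lone names 20 were in no old clique, and their background was not computed. Of the 97 old genes, 26 (26.8%, background 0.55%) were alone in a young clique of 10 or more nodes. With other genes in such a clique stood 63 (64.9%, against 89.4% of all names in old cliques of 10 or more nodes). In smaller young cliques there were 0 (background 0.77% alone and 1.83% with others), and 8 (8.25%, background 7.42%) were in no young clique.

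**Figure D3:**
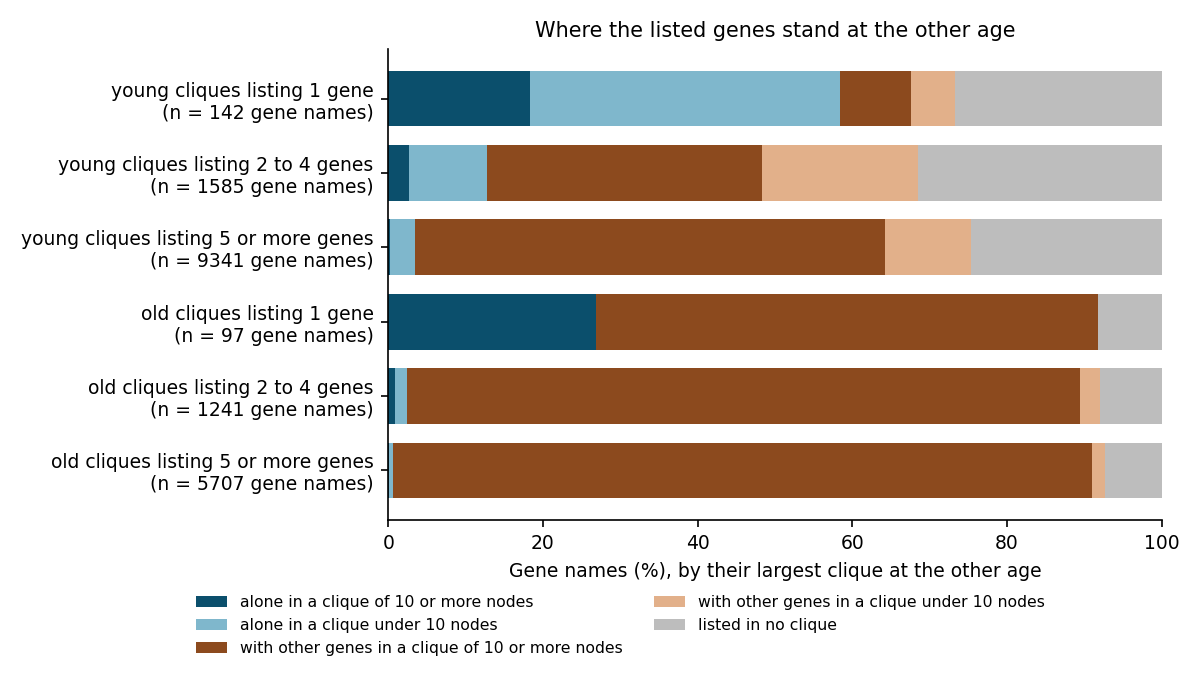
Horizontal stacked bars give the percentage of gene names by the state of their largest clique at the other age, for cliques of 10 or more nodes that list 1, 2 to 4 or 5 or more genes at each age. For young single-gene cliques the alone states hold 26 and 57 of 142 names, and for old ones the state with other genes in a clique of 10 or more nodes holds 63 of 97.

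The 26 genes alone at both ages had 584 nodes in young and 444 in old, of which 377 were shared. The old clique had fewer nodes for 22 genes, more for 2 and as many for 2, with a median of 24 nodes in young and 16 in old. Fewer nodes in old was also the common state of all names. Of the 9714 names listed at both ages, 8032 had fewer nodes in old, 1211 more and 471 as many. For 7 genes every old node was also a young node of the same clique. Gabbr2 had 34 young and 30 old nodes with 25 shared, and Plpp3 had 32 and 20 with 19 shared. Met had 29 and 18 nodes with 17 shared, over 230 and 185 kb at chr6:17365001-17595000 in young. Cps1 (carbamoyl-phosphate synthase, which starts the urea cycle) had 26 and 17, and all 17 old nodes were young nodes. Slc2a2 had 21 and 14 with 13 shared.

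Several of the 26 differed in other ways. Ext1 had 35 and 17 nodes, over a young span of 610 kb and an old span of 245 kb. Nudt7 (a peroxisomal hydrolase of coenzyme A) had 25 and 16 nodes over 310 and 80 kb, and its old clique filled its span without a gap. Tcf7l2 (the DNA-binding partner of beta-catenin) had 27 and 13 with 10 shared. Rbms1 had 14 and 16 nodes. Tns3 had 10 and 27, with only 4 nodes shared, an index of 0.12 and spans of 120 and 440 kb. In all, the old span was the shorter for 17 genes, equal for 5 and longer for 4. The rule asks for 10 or more nodes at both ages, so these genes are chosen to be large at both.

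**Figure D4:**
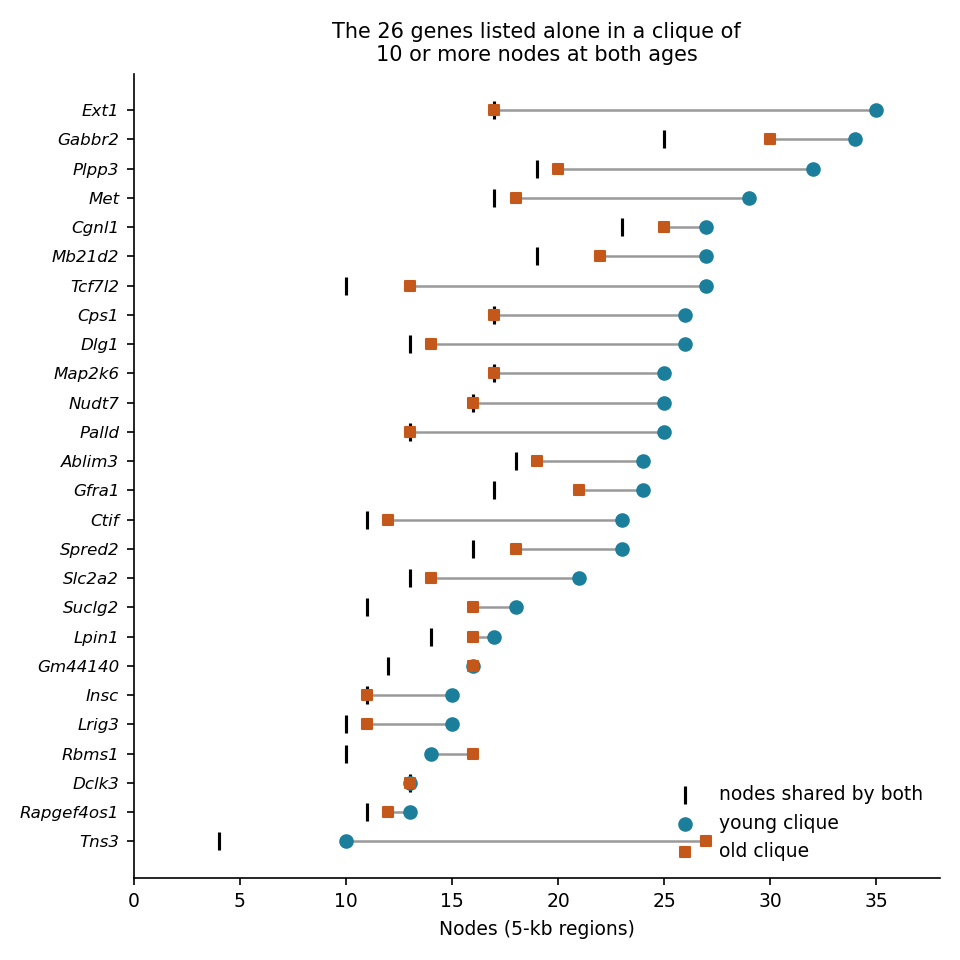
For each of the 26 genes, circles give the nodes of its young clique, squares the nodes of its old clique and black ticks the nodes in both. The young value is the higher for 22 genes, and Tns3 and Rbms1 are the genes with more nodes in old. Of all 9714 names listed at both ages, the young value is the higher for 8032.

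Over the 104 young genes also listed in old, the old clique was smaller by 2-fold or more for 51, against 39.9% of all names in young cliques of 10 or more nodes, and larger by 2-fold or more for 2 (background 1.61%). The median log2 ratio of old to young nodes was -0.94 for these genes and -0.72 for that background. Among the 5031 names in young cliques within the size range of the young members, 1826 were smaller and 132 larger by 2-fold or more. Since the rule used the young node number, these counts are a description. Over the 89 old genes also listed in young, the old clique was smaller by 2-fold or more for 29 (background 24.9%) and larger for 1 (background 4.37%). Among the 5007 names in old cliques within the size range of the old members, 1459 were smaller and 147 larger by 2-fold or more. With node numbers divided by the mean of their age, the counts smaller by 2-fold or more were 31 in place of 51 for young genes and 8 in place of 29 for old genes. No background was computed for these divided counts.

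Some genes alone in young were alone in an old clique under 10 nodes. Kynu (kynureninase, of tryptophan breakdown) had 18 nodes and 5 in old. Smad3 (a transcription factor downstream of TGF-beta receptors) had 15 and 3, and 6 of its 15 young nodes were old nodes, in 4 old cliques. Tgfbr1 (the type I TGF-beta receptor) had 13 and 8, and Adra1a (an alpha-adrenergic receptor) had 12 and 5. Spata13 had 25 and 8 nodes and Khdrbs3 had 21 and 2, all of their young nodes being inside the gene.

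Of the 38 young genes in no old clique, 31 had a best old counterpart that listed no gene, and Cacng3 and Gm26854 had no old counterpart. Among the 18 that were protein-coding, 15 had at least 1 old node in the gene body. Aff1 had 25 of 35 young nodes in old, Msra (methionine sulfoxide reductase A) 15 of 25, Hsd17b12 (a hydroxysteroid dehydrogenase of fatty acid elongation) 9 of 22 and Smarca2 (a BAF chromatin remodeller ATPase) 11 of 19. Their best old cliques had 24, 17, 11 and 13 nodes in that order and listed no gene. In the opposite direction, Hs3st3b1 had 15 old nodes, and its best young clique of 16 nodes listed no gene. In these cases nodes were present at the other age without the gene name. Not given in the sources used here is how the authors assigned promoters to nodes.

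Other genes alone in young were listed with further names in old. Arid5b was listed in old with 4930545H06Rik in a clique of 33 nodes, and 32 of its 45 young nodes were old nodes. Slc38a4 was joined by its family member Slc38a2 and 2 other names in an old clique of 33 nodes, with 15 of 31 nodes found. Myo1e was listed with Bnip2, Gm28731 and Gtf2a2 in a clique of 29. Aqp8 (a water and ammonia channel) had 20 nodes, and 16 in old with Arhgap17 and Lcmt1. Scara5 (a ferritin receptor) had 18, and in old it stood in a clique of 55 nodes that also listed Clu, Ephx2 and 6 more names. The lone gene differed between ages in the same region in few cases, such as this pair, chosen after the values were seen: Herc1 (23 nodes) was alone in young and Dapk2 (13 nodes) in old, with 13 of the 23 Herc1 nodes found in old and a Jaccard index of 0.44 between these cliques.

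For the 63 old genes that had company in young, the young clique had a median of 27 nodes and the old a median of 14. The young cliques listed 212 partner names, of which 99 (46.7%) were listed somewhere in old. Of all 11068 names in young cliques of 10 or more nodes, 8224 were listed in old and 2844 (25.7%) were not, so the partners were listed less often. By the rule the gene is alone in its old clique, so no partner can stand beside it there. The partner count is therefore partly fixed by the choice and is a description. For 19 genes there was 1 partner, for 33 there were 2 to 4 and for 11 there were 5 or more, and 16 genes had no protein-coding partner. Thrb had 46 young nodes with the partner Gm24140, and 27 in old. Igf1 had 27 young nodes with Gm48195 and Gm48306, and 12 in old, all of them young nodes. Irs1 (insulin receptor substrate 1) had 29 young nodes with Gm9747 and Mir6344, the farthest node 974 kb downstream of its start, and 10 in old, the farthest 234 kb downstream.

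The nodes of the young cliques with most partners lay in 2 to 9 old cliques. Ppp2r5a (a regulatory subunit of protein phosphatase 2A) stood in a young clique of 120 nodes with 26 partners, among them Atf3 and Lpgat1. Of those 120 nodes 78 were old nodes, in 9 old cliques, and Ppp2r5a was alone in 1 with 14. Arl8b (a GTPase of lysosome transport) came from a young clique of 105 nodes with 12 partners, of which Bhlhe40 and Itpr1 stood in an old clique of 58 nodes while Arl8b was alone with 10. Ypel2 came from 67 young nodes with Mir21a and Vmp1 among its 9 partners and was alone with 26, and Mir21a stood with Cltc in an old clique of 23. Lipg (endothelial lipase) came from 58 nodes with 10 partners and was alone with 25 nodes, all of them young nodes. Hnrnpa0 came from 40 nodes with 10 partners and was alone with 11.

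Distances to the start, measured from the centre of a node, show how single loci were arranged. The node that holds the start is counted apart, and each gene named here with a clique had it. Met had 4 young nodes upstream of that node and 24 downstream, out to 129 kb, and in old 1 and 16. Slc2a2 had 10 young nodes upstream, out to 135 kb, and 4 in old, out to 140 kb, while 10 and 9 lay downstream. Igf1 had 12 young nodes upstream, out to 269 kb, and 3 in old, out to 169 kb, and its downstream nodes were 14 and 8. Since the Igf1 start used lay inside the gene body, the nearest node counted as upstream overlapped the gene at both ages. Tgfbr1 had 9 of 13 young and 6 of 8 old nodes upstream. Ghr had 16 of 18 young nodes downstream, and both old nodes in that stretch belonged to another clique that did not list it.

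**Figure D5:**
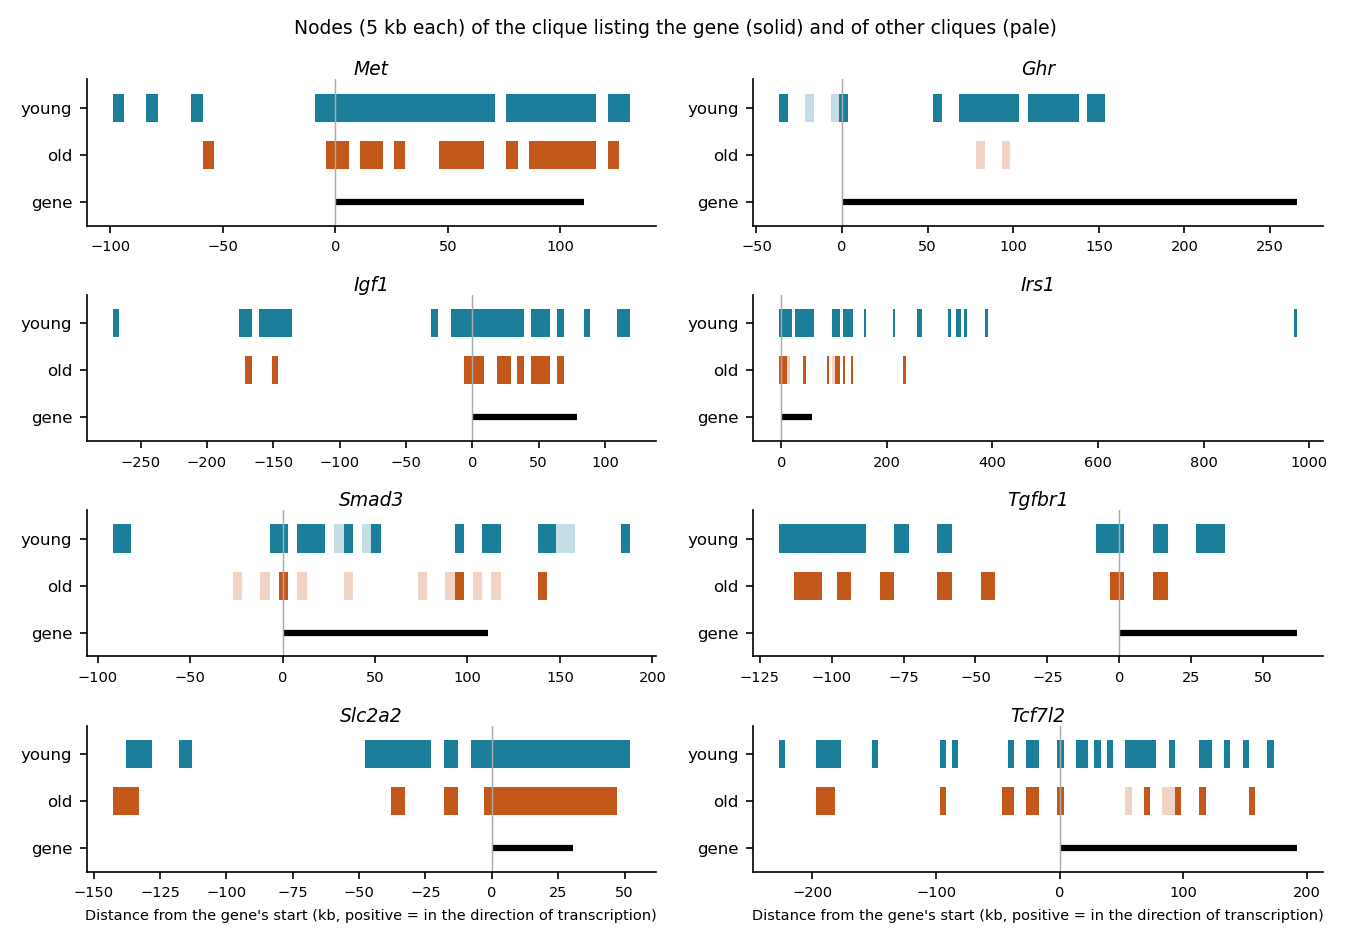
Positions of nodes (5 kb blocks, young above old) of the clique that lists the gene (solid) and of other cliques (pale), on a horizontal axis of kb from the gene's start in the direction of transcription. The length of the gene is drawn in black from the start used. Ghr has 18 solid young blocks and no solid old block, and Met has 29 young and 18 old ones.

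Lists of genes that are known for hepatocyte functions were set beside the lone names. The background was 109 of 8536 protein-coding genes listed in young (1.28%) and 81 of 7048 in old (1.15%). Of the growth factor, hormone and cytokine signalling list, 5 of 54 listed genes were alone in young (Met, Ghr, Smad3, Tgfbr1 and Adra1a, 9.26%) and 3 of 47 in old (Met, Igf1 and Irs1, 6.38%). Of the carbohydrate and amino acid metabolism list, 4 of 58 were alone in young (Slc38a4, Cps1, Slc2a2 and Kynu) and 3 of 54 in old (Cps1 and Slc2a2 among them). Of the hepatocyte transcription factors, 1 of 46 was alone in young (Tcf7l2) and 2 of 44 in old (Thrb and Tcf7l2). Of the lipid and bile acid list, 1 of 67 was alone in young (Lpin1, a phosphatidate phosphatase, 17 nodes) and 2 of 60 in old (Lipg and Lpin1, 25 and 16 nodes).

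The other lists had few lone genes. Of the xenobiotic list, 1 of 60 was alone in young (Aldh1a7) and 2 of 48 in old (Cyp51, of cholesterol synthesis, 12 nodes, and Mgst1, a microsomal glutathione transferase, 11 nodes). Of the immediate early and stress list, 0 of 54 were alone in young and 1 of 52 in old. Of the secreted plasma proteins, 0 of 68 were alone in young and 1 of 62 in old. Of the circadian clock list, 0 of 21 and 0 of 16 were alone. These counts are small and carry no test, and the lists were drawn up with earlier results of these data known.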

How the data were processed

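H3K27ac Hi-ChIP networks of young and old mouse hepatocytes were analysed as deposited, in 4 tables that name no replicate. Bowtie2 and HiC-Pro, with the builds mm10 and GRCm38, are named in the submitters' processing notes, without versions. Not given in the sources used here were the loop caller, the clique method, the promoter window and how libraries were combined. The deposited values are node numbers per clique and node positions, per the file headers, with gene and node names.

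Nodes of the ages were matched as the same 5 kb bin. Names were matched to RefSeq genes of GRCm38.p6 by symbol or unique synonym (128 of 142 young and 89 of 97 old names). A gene's counterpart was its largest clique at the other age. Promoter sequence was known for 85 of 109 young (78.0%) and 59 of 81 old lone protein-coding genes (72.8%), under the 80% required, so a comparison of base composition over the set was void. The overlap code was checked on simulated cliques. Genes named are the 10 largest per age, 8 alone at both ages, extremes of 5 each and up to 5 per list; others were chosen after their values were seen. A few of the genes so selected are not reported here. Members and lists were chosen with earlier results of these data known. No library-level values were analysed here. Alternatives are in the closing section. Python 3.11.15 and pandas 2.3.3 were used.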

Additional observations from a re-analysis of the deposited data

How the results depend on the processing

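The count of young single-gene cliques, 142, was 74 with a minimum of 15 nodes, 44 with 20 and 395 when only protein-coding names were counted, which admits cliques with noncoding names beside 1 coding gene. The old count, 97, was 146 with a minimum of 8 nodes, 48 with 15, 23 with 20, 300 with protein-coding names only and 210 with a minimum of 6 nodes, the same size quantile as 10 in young. The share of young nodes found in old, 51.1%, was 71.8% when a neighbouring bin also counted, 55.0% from 20 nodes up and 54.6% with protein-coding names only. The old share was 95.7% with a neighbouring bin. Young cliques with 50% of nodes found, 50.0%, were 10.6% at a limit of 75% of nodes, 61.4% from 20 nodes up (and so in the 20 to 49 range) and 81.7% with a neighbouring bin. For old cliques the values were 86.6% at 75% and 100% from 20 nodes up and in the 20 to 49 range. At Jaccard limits of 0.3 and 0.7, 57.7% and 7.04% of young cliques and 86.6% and 13.4% of old cliques were matched. With node numbers divided by the mean of their age, 31 young and 8 old lone genes were smaller by 2-fold or more in old, against 51 and 29, and 4 young ones were larger, against 2. At a fold of 1.5, 53 old lone genes were smaller. Added after seeing the data, 12 of the 21 young genes listed with others in old had a protein-coding partner there, and 18 of the 38 in no old clique were protein-coding. Of 48 alternatives, 29 moved a value beyond its interval or by over 1.5 times. No paired analysis was possible because each age has 1 pooled network. Leaving out a library was not run for the same reason. The depth behind either network is unknown, so a node absent at 1 age is not shown to lack contacts.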
